A study of Homo sapiens with 4 samples.

Results

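TGF-β and bone morphogenetic protein (BMP) receptors and SMADs were followed through 10 genes, chosen by symbol from the 20804 genes of the deposited table. They are the co-receptor genes ENG and TGFBR3, the type II receptor genes TGFBR2 and BMPR2, the type I receptor genes TGFBR1, ACVR1 and BMPR1A, and the SMAD genes SMAD2, SMAD3 and SMAD4. RNA was sequenced in 4 libraries of MDA-MB-231, an established human line of triple-negative breast cancer, a class of tumour without oestrogen receptor, progesterone receptor or amplified HER2. In 2 libraries the labels give the genotype as wild type (WT), and in the other 2 as lacking miR-3662, a microRNA, by knockout (KO). No treatment, time or further allele is named for either group. The title, however, names CRISPR interference and activation, and the design text describes sorting cells by activity of the microRNA, so what was done to the KO cells is uncertain. How the knockout was made, and whether the KO libraries come from 1 clone or from separate cultures, is not given, so the p-values measure only the spread between these libraries, which may be technical.

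Ligands of the TGF-β superfamily bind a pair of type II and a pair of type I serine/threonine kinase receptors, and the type II receptor phosphorylates the type I receptor. TGF-β and activin signal through TGFBR1 or related kinases to SMAD2 and SMAD3, and BMPs through ACVR1, BMPR1A or BMPR1B to SMAD1, SMAD5 and SMAD9. Both sets join SMAD4 and enter the nucleus. ENG (endoglin) and TGFBR3 (betaglycan) are related membrane glycoproteins that present ligand to the kinases and lack kinase activity of their own. In breast cancer cells TGF-β is known both for growth arrest and, in mesenchymal-like lines such as this one, for invasion and metastasis.

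The microRNA that defines the groups is shown with its seed, bases 2 to 8, in capitals, as RefSeq gives it (GRCh38.p14, chr6:134979355-134979378, minus strand).
hsa-miR-3662: gAAAAUGAugaguagugacugaug
A match to the seed reads TCATTTT in a transcript, and 18 such matches lay in the longest annotated 3′ UTR (GENCODE 29) of 7 of the 10 genes. There were 7 in SMAD2, 3 each in BMPR1A and BMPR2, 2 in TGFBR3 and 1 each in TGFBR1, TGFBR2 and SMAD4. ENG, ACVR1 and SMAD3 had none. With a match, the log2 fold changes between KO and WT were 0.12 in SMAD2, 0.36 in BMPR1A, -0.086 in BMPR2 and 1.02 in TGFBR3. Those of TGFBR1, TGFBR2 and SMAD4 were 0.47, 0.39 and -0.15. Without a match they were -2.20 in ENG, 0.25 in ACVR1 and 0.40 in SMAD3. A relation between matches and changes was not tested. The matches in the 3 TGF-β receptor genes that hold one are shown because 2 of these genes were higher in KO, with the match in capitals and 10 bases on each side.
TGFBR3 match 1 (chr1:91682798-91682824, minus strand): cctggcacatTCATTTTctcagttgaa
TGFBR3 match 2 (chr1:91682108-91682134, minus strand): aaattgacaaTCATTTTtaccaaatcg
TGFBR2 (chr3:30693515-30693541, plus strand): gtggaaggtcTCATTTTattgagattt
TGFBR1 (chr9:99151955-99151981, plus strand): gcgtccatatTCATTTTgtcagtagcc
A match is a description of the sequence and not a shown target site. Of 10883 tested genes with an annotated 3′ UTR, 33.4% held a match. Their 3′ UTRs were longer, with a median of 2786 bases against 893 without a match, and the longest one used for SMAD2 spanned 32870 bases. The median log2 fold change was 0.089 with a match and 0.059 without, a difference that was not tested.

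The promoters of ENG and TGFBR3 are shown because these co-receptor genes moved in opposite directions. Each runs from 250 bases before to 50 after a listed start (RefSeq, GRCh38.p14), with 1 listed for each gene. The ENG window holds the upper end of its gene, at 127854658. The TGFBR3 window lies inside its gene, which reaches up to 91906002. Capitals mark the motif AGAC, which is the core of the SMAD-binding element, as well as the GC-rich motif GGCGC and, as a further GC-rich motif, GGCCG. Each was searched on both strands, so its reverse complement counts as a match, and matches may overlap one another.
ENG (chr9:127854609-127854908, minus strand): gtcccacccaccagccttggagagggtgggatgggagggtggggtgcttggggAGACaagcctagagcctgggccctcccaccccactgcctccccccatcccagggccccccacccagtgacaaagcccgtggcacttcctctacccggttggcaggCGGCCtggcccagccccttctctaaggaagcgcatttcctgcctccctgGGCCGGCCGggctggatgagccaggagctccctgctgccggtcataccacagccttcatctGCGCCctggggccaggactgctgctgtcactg
TGFBR3 (chr1:91886102-91886401, minus strand): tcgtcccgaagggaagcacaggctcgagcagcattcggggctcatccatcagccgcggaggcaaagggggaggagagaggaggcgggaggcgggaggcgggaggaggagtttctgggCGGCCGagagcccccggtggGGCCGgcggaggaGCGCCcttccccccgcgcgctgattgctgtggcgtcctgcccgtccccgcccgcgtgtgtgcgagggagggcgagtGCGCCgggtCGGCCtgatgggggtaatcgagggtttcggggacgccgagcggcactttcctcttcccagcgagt
The ENG window held 1 match to AGAC, 1 to GGCGC and 4 to GGCCG. The TGFBR3 window held 0, 2 and 4. Among 35116 promoters of the same length, 84.0% held AGAC, 48.6% held GGCGC and 49.3% held GGCCG. The G and C content was 68.3% in the ENG window and 71.7% in the TGFBR3 window, against a median of 58.7% over all promoters.

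Expression was given as FPKM, fragments scaled by transcript length and library total, so levels of different genes can be compared. At least 1 FPKM was reached by 11283 to 11723 genes per library. The 11786 genes that reached 1 FPKM in 2 or more libraries were tested with limma on log2(FPKM + 1), where fold changes of weakly expressed genes come out too small. A gene was called changed at a Benjamini-Hochberg adjusted p under 0.05 over all of them, and all adjusted p-values below come from limma. The labelled line was checked on its markers: VIM was at 1120 to 1321 FPKM and CD44 at 104 to 114, ESR1 and CDH1 were at or under 0.03, and ERBB2 stood at 8.55 to 11.4. EPCAM, an epithelial marker, was low and fell from 1.08 and 1.15 to 0.34 and 0.05 FPKM (-0.83, adjusted p 0.0103), a call lost without the second KO library (adjusted p 0.0609).

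The co-receptor genes moved in opposite directions. ENG (chromosome 9 from 127815016 to 127854658, GRCh38.p14) was at 4.03 and 4.80 FPKM in WT and at 0.23 and 0.12 in KO. The groups did not overlap, and both KO values lay close to 0. ENG fell from a mean of 4.42 ± 0.544 to one of 0.175 ± 0.0778 FPKM (± SD, n = 2 in each group), a ratio of means of 25.2-fold, and a log2 fold change of -2.20 ± 0.15 (SE, adjusted p 0.00043). With a pseudocount of 0.1 in place of 1 the log2 fold change was -4.06 (adjusted p 0.00084). In bulk RNA fewer cells with the transcript and less transcript per cell cannot be told apart. TGFBR3 (chromosome 1 from 91680343 to 91906002) was at 3.64 and 3.18 FPKM in WT and at 8.15 and 7.72 in KO. Its KO values lay above both WT values, and it rose from 3.41 ± 0.325 to 7.94 ± 0.304 FPKM, a log2 fold change of 1.02 ± 0.15 (adjusted p 0.0043). In WT the transcripts of these co-receptors were of like abundance, and in KO nearly all of their joint FPKM was TGFBR3.

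ENG is also a marker of endothelium, and part of an endothelial list moved with it. The summed level of 8 endothelial markers was 60.7 and 73.0 FPKM in WT and 30.1 and 36.4 in KO, nearly all of it ESAM. Of the 2 tested members both fell: ESAM, an adhesion molecule of tight junctions, from 59.3 and 71.7 to 29.3 and 35.6 FPKM (-0.99, adjusted p 0.0049), and the receptor gene TIE1 from 1.16 and 1.08 to 0.31 and 0.12 (-0.81, adjusted p 0.0083). The call of TIE1 was lost without the second KO library (adjusted p 0.0526). The defining markers PECAM1, CDH5, KDR and VWF were too low to be tested, at or under 0.29 FPKM in every library. Among these low values CDH5 was lower in both KO libraries, but PECAM1 (0.02 and 0.03 in WT, 0.17 and 0.29 in KO), KDR and VWF were higher in both. The sum of 5 leukocyte markers was 30.3 and 39.4 FPKM in WT and 68.0 and 117 in KO, nearly all of it the lysosomal gene CD68, with PTPRC and CD3E listed at 0 in all 4 libraries. The sum of the 5 fibroblast and pericyte markers in the table was 1.16 and 1.57 in WT and 0.39 and 0.36 in KO. Most of it was COL1A1, which is also among the TGF-β targets below, while PDGFRA, PDGFRB, THY1 and COL3A1 stood at or under 0.09. The part of these genes in the results was not tested.

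Among the kinase receptors, the type II receptor gene of TGF-β was the most abundant. TGFBR2 (chromosome 3 from 30606356 to 30694142) was at 57.38 and 57.40 FPKM in WT and at 76.15 and 75.40 in KO. The groups did not overlap and the values within each were close together. TGFBR2 rose by 0.39 ± 0.11 on the log2 scale (adjusted p 0.0329), from 57.4 ± 0.0141 to 75.8 ± 0.530 FPKM. This call was lost when libraries were scaled by median of ratios (adjusted p 0.0528), with the replicate number as a block (adjusted p 0.0601) and without any 1 of the 4 libraries (adjusted p 0.0815 to 0.141). BMPR2 (chromosome 2 from 202376327 to 202567749), the type II receptor gene of BMPs, was at 2.61 and 1.92 FPKM in WT and at 2.12 and 2.0 in KO. Both KO values fell between the WT values, and the log2 fold change was -0.086 ± 0.16 (adjusted p 0.717).

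The type I receptor genes among the 10 stood higher in KO in every library but did not pass the test. ACVR1B, a type I receptor gene outside the 10, had both KO values under both WT values and did not pass either. TGFBR1 (chromosome 9 from 99103647 to 99154192), which pairs with TGFBR2, was at 6.27 and 5.51 FPKM in WT and at 7.66 and 9.47 in KO, a log2 fold change of 0.47 ± 0.16 (adjusted p 0.0665). BMPR1A (chromosome 10 from 86755763 to 86932844), a type I receptor of BMPs, was at 10.62 and 10.35 FPKM in WT and at 13.71 and 13.84 in KO (0.36 ± 0.13, adjusted p 0.0792). ACVR1 (chromosome 2 from 157736446 to 157876330), which serves BMPs and activin A, was at 6.27 and 6.59 FPKM in WT and at 7.45 and 8.27 in KO (0.25 ± 0.14, adjusted p 0.224). In none of the 3 did the groups overlap, and 39.3% of all tested genes likewise had both KO values above both WT values. BMPR1A and TGFBR1 have pseudogenes elsewhere in the genome that could share reads, so their values carry that uncertainty.

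Of the SMAD genes, SMAD3 was by far the most abundant and none passed the test. SMAD3 (chromosome 15 from 67065602 to 67195169), a DNA-binding effector of TGF-β, was at 37.11 and 46.49 FPKM in WT and at 54.27 and 56.11 in KO, a log2 fold change of 0.40 ± 0.14 (adjusted p 0.0672). The WT libraries differed from each other by more than the second WT library did from the first KO library. SMAD2 (chromosome 18 from 47808957 to 47930872), the other effector of TGF-β and activin, was at 3.42 and 3.10 FPKM in WT and at 3.60 and 3.63 in KO (0.12 ± 0.15, adjusted p 0.574). SMAD4 (chromosome 18 from 51030213 to 51085042), the partner shared by both branches, was at 3.58 and 3.51 FPKM in WT and at 3.0 and 3.21 in KO (-0.15 ± 0.14, adjusted p 0.472). SMAD4 was the only one of the 3 with both KO values under both WT values.

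**Figure D1:**
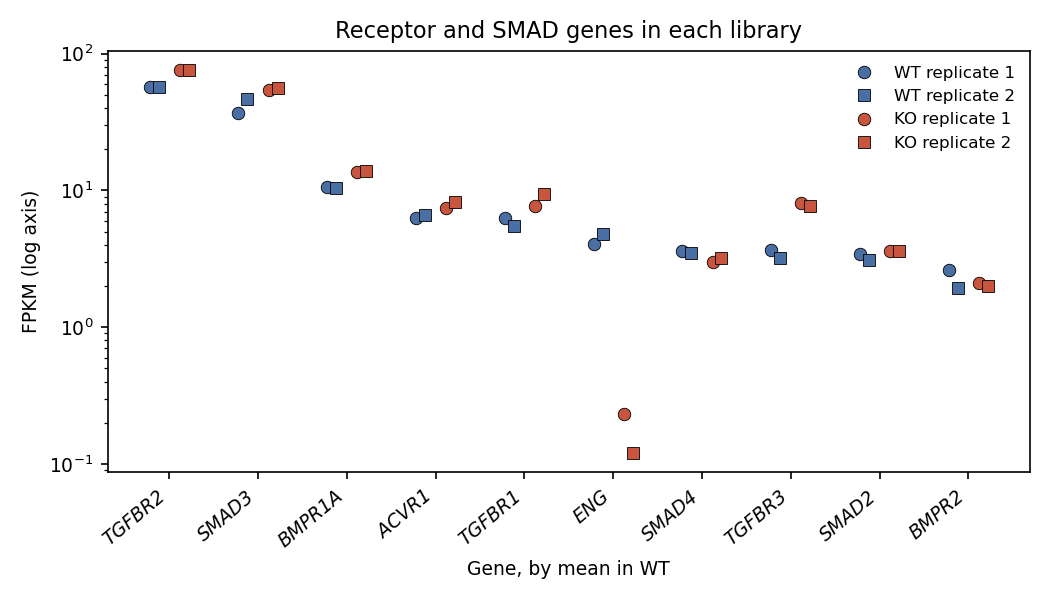
FPKM of the 10 genes in each library on a log axis, ordered by the mean in WT, with blue symbols for WT, red for KO, circles for replicate 1 and squares for replicate 2. The KO values of ENG (0.23 and 0.12) lie far under its WT values, those of TGFBR3 lie above, and TGFBR2 and SMAD3 are the most abundant in all 4 libraries.

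All 10 genes passed the filter on low values. Of them 2 rose (TGFBR2 and TGFBR3), 1 fell (ENG) and 7 did not pass, while of all tested genes 27.0% changed, 16.2% upward and 10.8% downward, so the shares of calls were near the background. Both KO values lay above both WT values in 7 of the 10 genes and below in 2, against 39.3% and 28.7% of all tested genes. The median log2 fold change of the 10 genes was 0.31, against 0.074 over all tested genes. With median-of-ratios scaling the medians were 0.26 and 0.030, and TGFBR3 (higher) and ENG (lower) were called, against 13.9% and 12.6% of all tested genes.

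**Figure D2:**
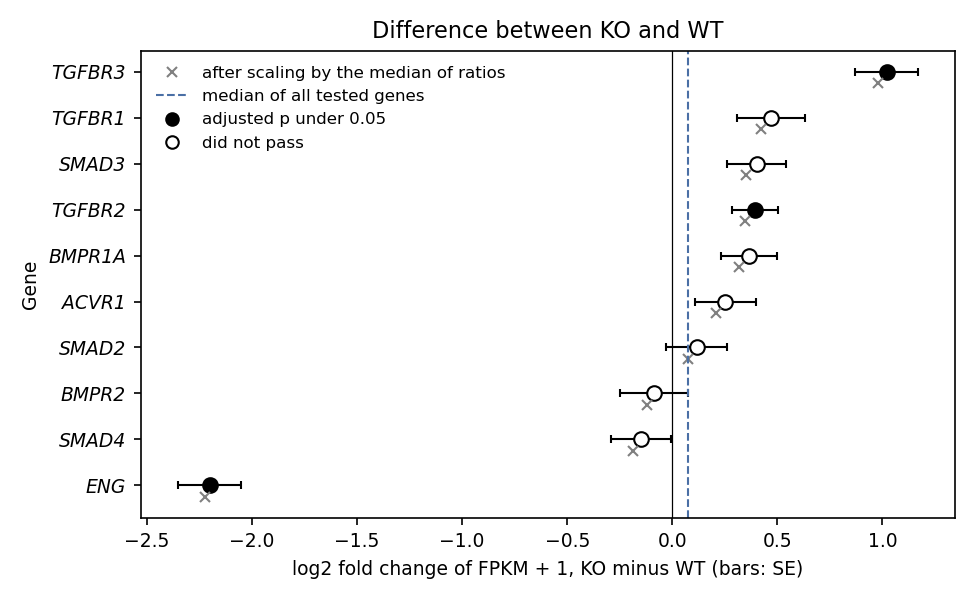
Log2 fold change of FPKM + 1 between KO and WT for each gene, with bars for the SE, filled circles for an adjusted p under 0.05, crosses for the value after scaling and a dashed line at the median of all tested genes (0.074). ENG (-2.20) lies apart on the left and TGFBR3 (1.02) on the right, and the other 8 lie between -0.15 and 0.47.

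TGFBR2 and SMAD3 ranked first and second by mean FPKM in both groups, followed by BMPR1A. ENG moved from rank 6 in WT to rank 10 in KO and TGFBR3 from rank 8 to rank 5. A ratio of 2 genes within a library does not depend on how that library was scaled. With 2 libraries against 2 an exact permutation test cannot give a p below 0.333, so the ratios are given as values. TGFBR3 to ENG was 0.903 and 0.663 in WT and 35.4 and 64.3 in KO, a change of 5.95 on the log2 scale, or of 3.22 with a pseudocount of 1 added to each value. The KO ratios rest on ENG values close to 0.

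TGFBR1 to TGFBR2 was 0.109 and 0.0960 in WT and 0.101 and 0.126 in KO, so the groups overlapped. Transcripts of the type I kinase were far fewer than those of the type II kinase in all 4 libraries. BMPR1A to BMPR2 was 4.07 and 5.39 in WT and 6.47 and 6.92 in KO, without overlap. In the BMP pair it was the type I receptor that was the more abundant. ACVR1 to BMPR1A was 0.590 and 0.637 in WT and 0.543 and 0.598 in KO, with overlap.

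SMAD3 to SMAD2 was 10.9 and 15.0 in WT and 15.1 and 15.5 in KO. The second WT library was close to both KO libraries, so the higher mean in KO rests on the first WT library. SMAD3 to SMAD4 was 10.4 and 13.2 in WT and 18.1 and 17.5 in KO, and SMAD2 to SMAD4 was 0.955 and 0.883 in WT and 1.20 and 1.13 in KO. Both ratios to SMAD4 were higher in each KO library than in either WT library.

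**Figure D3:**
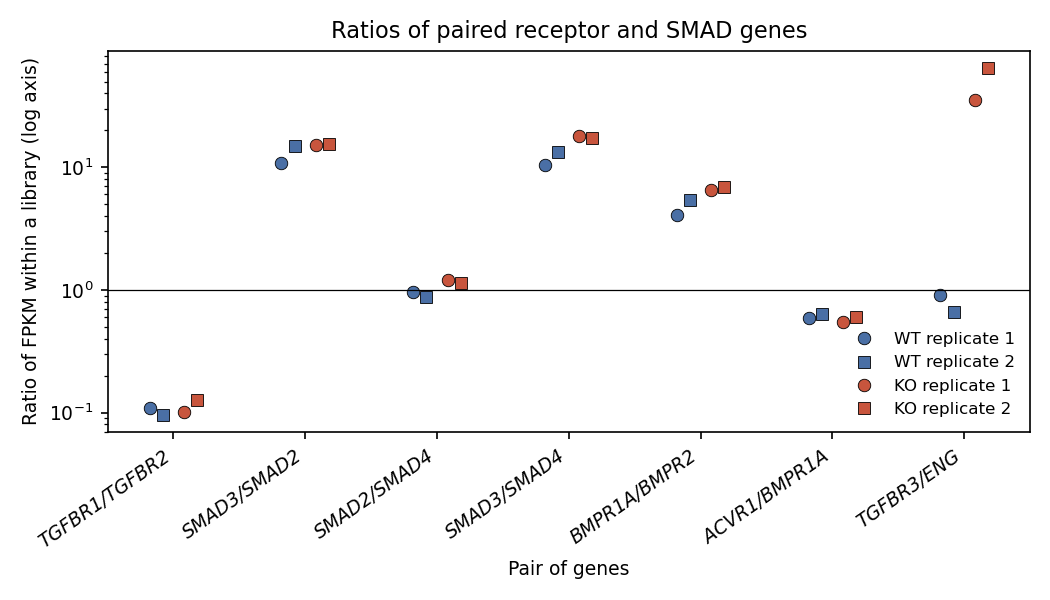
Ratio of FPKM of 2 genes within each library on a log axis, with blue symbols for WT and red for KO and a line at equal values. The ratio of TGFBR3 to ENG goes from below 1 in WT to 35.4 and 64.3 in KO (log2 change 5.95, or 3.22 with a pseudocount of 1), and the other 6 ratios differ much less.

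ENG lies in a gene-dense stretch of chromosome 9, and its neighbours had mostly negative log2 fold changes. Of 41 other tested genes within 1 Mb of it, 12 fell and 3 rose, against 10.8% and 16.2% of all tested genes, 31 had a log2 fold change below 0, and their median was -0.32 (-0.35 after scaling). Without the first WT, the second WT or the second KO library 5, 6 and 5 of them fell, and without the first WT or the first KO library 0 rose in place of 3. The fall of ENG was larger than that of any of them. SLC25A25, a mitochondrial carrier gene, fell from 14.75 and 13.13 to 6.41 and 5.12 FPKM (-1.15, adjusted p 0.0038) and was the only neighbour with a change of at least 1. The nearest tested genes, named for their position, were FPGS, the folylpolyglutamate synthase gene (-0.43, adjusted p 0.0279), CDK9, a kinase gene of transcription elongation (-0.63, adjusted p 0.0112), and AK1, an adenylate kinase gene (-0.31, adjusted p 0.147). LOC102723566, a long non-coding RNA gene that overlaps ENG, was at 0.28 and 0.43 FPKM in WT and at 0.40 and 0.34 in KO.

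Neighbours of the other 9 genes were fewer, and their medians lay closer to that of all tested genes or above it. TGFBR1, on the same chromosome, had 8 tested neighbours, of which 1 rose and 1 fell, with a median of -0.014. TGFBR3 had 7, of which 1 rose, with a median of 0.21. Around BMPR2, 1 of 12 neighbours rose and 2 fell, and MPP4 was the only one with a change of at least 1 (-2.06, adjusted p 0.0021). Around SMAD3, SMAD4 and BMPR1A (13, 5 and 12 neighbours) none passed in either direction. The shares over all tested genes were 16.2% higher and 10.8% lower.

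**Figure D4:**
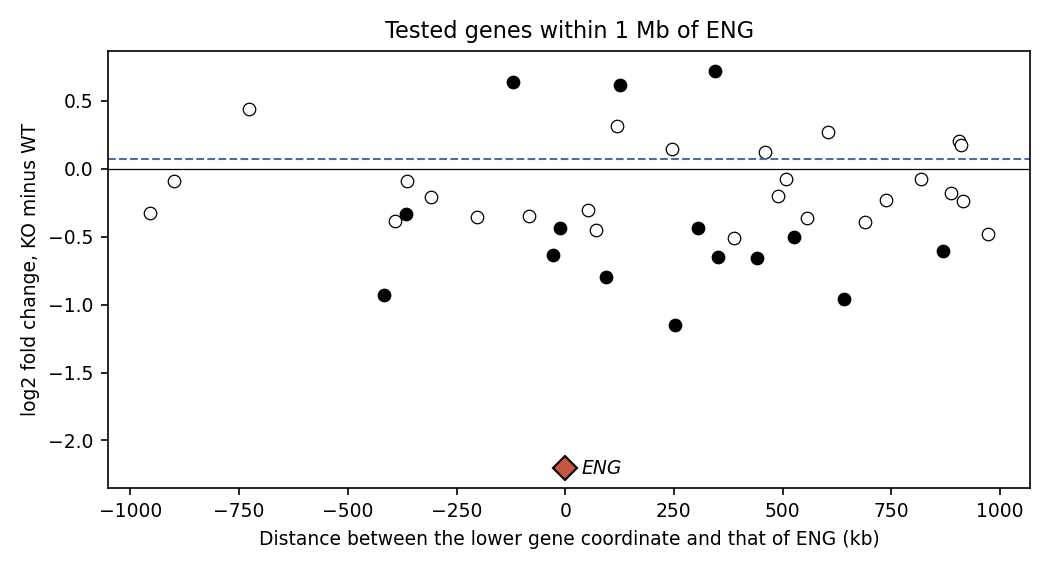
Log2 fold change of the 41 tested genes within 1 Mb of ENG against the distance between their lower coordinate and that of ENG, in kb, with filled circles for an adjusted p under 0.05, a red diamond for ENG and a dashed line at the median of all tested genes. Of the neighbours 31 lie below 0, and ENG (-2.20) lies under all of them.

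The rest of the pathway was described by lists of known roles. Of 7 other type I and type II receptor genes only ACVR1B and ACVR2A reached the filter, and neither passed the test. ACVR1B, the main type I receptor of activin, was at 5.22 and 5.26 FPKM in WT and at 4.53 and 3.54 in KO (-0.32, adjusted p 0.174). ACVRL1, the partner of ENG in endothelium, stood at or under 0.10 FPKM in all 4 libraries. Of 7 tested co-receptors and decoys 2 rose and 1 fell, against 16.2% and 10.8% of all tested genes. The result of 1 of the 7 was already known when the list was written, and of the other 6 genes 2 rose and 1 fell. NRP1, a neuropilin that also binds TGF-β, rose from 13.1 and 12.6 to 31.6 and 21.4 FPKM (0.96, adjusted p 0.0106). RGMB, a BMP co-receptor, fell from 13.0 and 9.02 to 6.08 and 5.0 FPKM (-0.86, adjusted p 0.0173), a call lost without the first WT or the second KO library (adjusted p 0.0808 and 0.1002). The third, ITFG1 (0.62, adjusted p 0.0239), is not an established co-receptor, and its call was lost without either WT library or without the second KO library (adjusted p 0.0712 to 0.143). None of the 4 tested other SMAD genes passed, with SMAD5 at 8.23 to 12.1 FPKM and the inhibitory SMAD7 at 3.91 and 3.81 in WT and 3.06 and 2.87 in KO (-0.29, adjusted p 0.162).

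The list of ligand genes changed in both directions, with 4 of 9 tested members up and 3 down, against 16.2% and 10.8% of all tested genes. Among the 4 is BMP1, which despite its name encodes a protease and not a ligand. Results for BMP4, GDF15 and TGFB2 were already known when the list was written. Of the other 6 genes only BMP1 rose and 3 fell. BMP4 rose from 3.54 and 5.18 to 62.4 and 24.4 FPKM (2.92, adjusted p 0.0031). The divergent member GDF15 rose from 0.19 and 0.47 to 2.73 and 1.66 (1.25, adjusted p 0.0058). BMP6 fell from 2.52 and 2.53 to 0.67 and 1.06 FPKM (-0.93, adjusted p 0.0071). TGFB1, the most abundant ligand gene in WT, was at 44.3 and 55.4 FPKM in WT and 44.9 and 37.0 in KO, with overlap (-0.28, adjusted p 0.216). Without the first KO library 2 ligand genes rose, and without the second WT or the second KO library 1 fell.

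Of 12 tested genes for ligand-binding proteins and latency 4 rose and 1 fell, against 16.2% and 10.8% of all tested genes. NRROS, which anchors latent TGF-β1 on cells, rose from 2.38 and 2.54 to 6.96 and 5.09 FPKM (1.01, adjusted p 0.0073). LTBP2, a matrix protein of the latent TGF-β binding protein family, fell from 15.01 and 13.95 to 6.48 and 7.26 (-0.98, adjusted p 0.0044). The number of rises was 1 without the second WT or the first KO library and 2 without the second KO library, and falls were 2 without the first WT or the first KO library.

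Lists of genes that act on the receptors and SMADs inside the cell had medians near 0, at -0.043 for adaptors and anchors, 0.058 for ubiquitin and phosphatase regulators and -0.14 for SMAD cofactors, against 0.074 over all tested genes. Shares of calls over all tested genes were 16.2% higher and 10.8% lower. Of 13 adaptors and anchors 3 rose and 1 fell, and PARD6A, a polarity protein that binds the TGF-β receptors, rose from 2.59 and 3.14 to 9.65 and 8.23 FPKM (1.36, adjusted p 0.0023). The other 2 rises, among them FKBP1A, which binds the inactive type I receptor (0.47, adjusted p 0.0158), and the fall each lost their call when some single library was left out. After scaling 2 of the 13 fell. Results for 1 of the 13 were already known when the list was written, and of the other 12 genes 3 rose and 0 fell. Of 20 ubiquitin and phosphatase regulators 2 fell and none rose. PMEPA1, a feedback inhibitor that holds SMAD2 and SMAD3 away from the receptor, fell from 2.40 and 3.03 to 1.07 and 0.52 FPKM (-1.06, adjusted p 0.0082). The ubiquitin ligase gene NEDD4L fell by 0.64 (adjusted p 0.0123), a call lost without the first WT or the first KO library (adjusted p 0.0686 and 0.0524). Of 17 tested SMAD cofactors 4 fell and 1 rose. The result of 1 cofactor was already known when the list was written, and of the other 16 genes 3 fell and 1 rose. JUN, which partners SMAD3 at many promoters, fell from 74.1 and 78.4 to 42.1 and 37.8 FPKM (-0.92, adjusted p 0.0031). With 1 library left out, 1 or 2 cofactors fell and 0 or 1 rose.

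Among 19 tested genes known as TGF-β targets, 12 fell and 1 rose, against 10.8% and 16.2% of all tested genes, and the median log2 fold change was -0.93 (-0.98 after scaling) against 0.074 over all tested genes. The values of 6 of them (IL11, CTGF, TGFBI, TAGLN, CDKN1A and SNAI2) were already known in part when the list was written, so its direction is not independent evidence. Without these 6, 8 of 13 fell and 1 rose, with a median of -0.80. Over the whole list 5 fell without the filter on low values, and 9 with a filter of a mean of at least 5 FPKM. The cytokine gene IL11 fell from 121 and 130 to 11.8 and 14.2 FPKM (-3.18, adjusted p 6.52e-05). CTGF, a matricellular protein gene, fell from 263 and 277 to 75.7 and 71.4 (-1.86, adjusted p 0.00025), and the matrix protein gene TGFBI from 205 and 189 to 75.5 and 68.5 (-1.44, adjusted p 0.00062). The number of falls was 10 to 13 with 1 library left out. HMOX1, the haem oxygenase gene, rose by 0.56 (adjusted p 0.0404), a call lost after scaling (adjusted p 0.0558), with the replicate number as a block (adjusted p 0.0520) and without the first WT, the first KO or the second KO library (0.105 to 0.194). FN1, SNAI2 and CDKN1A did not pass, and several of the targets also answer to other pathways. PMEPA1 and LTBP2, whose falls were counted in lists above, are also among the 12 targets that fell.

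Genes known as targets of BMPs fell or did not pass. Of 13 tested members 5 fell and none rose, against 10.8% and 16.2% of all tested genes. The median log2 fold change was -0.29 (-0.33 after scaling). The number of falls was 3 without the filter on low values, and 3 with a filter of a mean of at least 5 FPKM. Results for GATA2, ID2 and BAMBI were already known when this list was written, so it too is not independent evidence. Of the other 10 genes 3 fell. ID3, an inhibitor of bHLH transcription factors, fell from 78.6 and 80.2 to 26.4 and 17.5 FPKM (-1.84, adjusted p 0.0015). ID2 fell from 1.97 and 2.49 to 0.51 and 0.68 (-1.02, adjusted p 0.0050), and the transcription factor gene GATA2 from 17.3 and 19.1 to 4.09 and 2.84 (-2.12, adjusted p 0.00079). The inhibitory SMAD6 (0.27, adjusted p 0.303) did not pass.

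**Figure D5:**
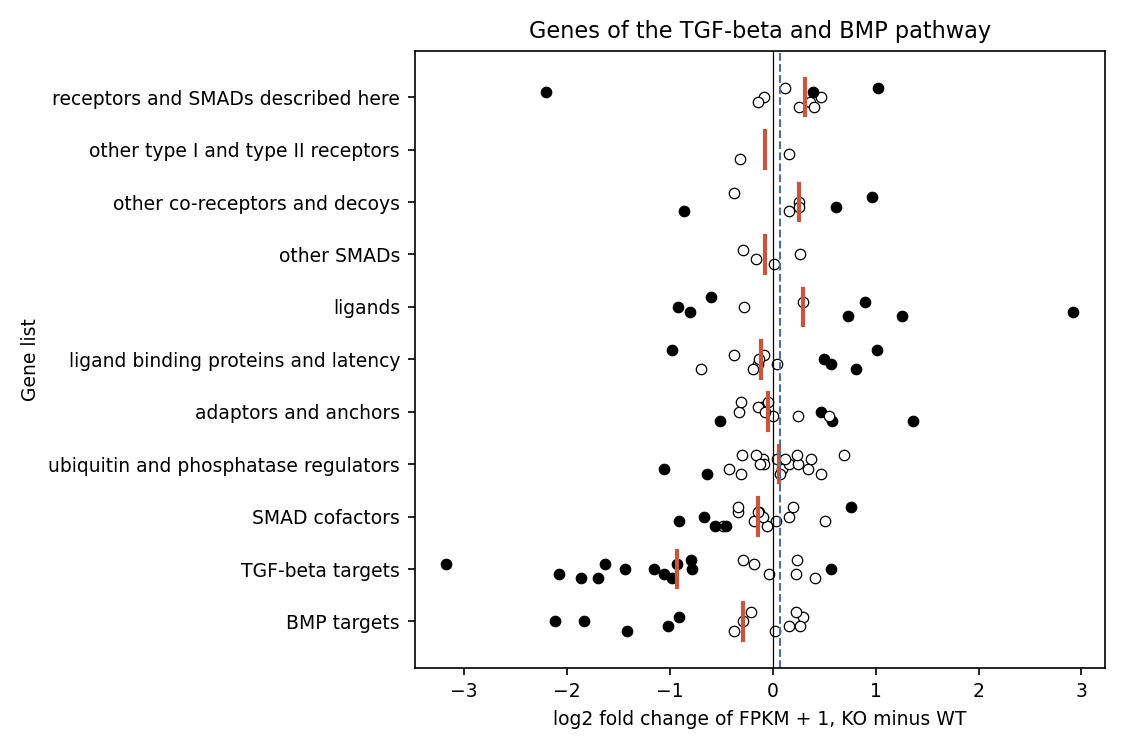
Log2 fold change between KO and WT of each tested gene by list, with filled circles for an adjusted p under 0.05, red bars at the list medians and a dashed line at the median of all tested genes. The TGF-β targets (median -0.93) and BMP targets (median -0.29) extend to the left, whereas the receptors and SMADs described here have a median of 0.31.

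The genes whose 4 values were most like those of ENG were sought among tested genes whose mean reached 2 FPKM, by the Euclidean distance of the centred log2 values over the 4 libraries. They were GATA2 (distance 0.216), FLNC, which encodes a filamin (0.231), CTGF (0.354), C16orf45 (0.442) and SMTN, the smoothelin gene (0.456). That all 5 were lower in KO follows from the way they were chosen. The likeness also rests on the pseudocount of 1: with 0.1 the log2 fold change of ENG was -4.06, against -2.38 for GATA2, -2.10 for FLNC and -1.87 for CTGF. That of C16orf45, at 0.0 and 0.08 FPKM in KO, was larger than that of ENG, at -5.32.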

How the data were processed

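The authors deposited FPKM values with 2 decimals, 1 for each gene in each library, as the file headers name them. The submitters' processing notes name HISAT, StringTie, Cufflinks and GATK and the build hg38, with no version and no statement of what each did. The sources used here do not give which one made the values, any filter, or whether strand was used. Per the labels' protocols, Trizol extraction was followed by a TruSeq library kit. Depth is not given. Ratios of low FPKM values between libraries shared no common step (9 of 76 genes within 3% of the best ratio for the second against the first WT library), so reads were not recovered and the precision of low values is unknown.

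FPKM values were analysed as log2(FPKM + 1) for genes that reached 1 FPKM in 2 or more libraries. The fit used limma 3.58.1 (R 4.3.3, mean-variance trend, no block, Benjamini-Hochberg over 11786 genes, adjusted p under 0.05). It was also run on simulated data with independent noise in each library. Those data held no effect of clone or culture, so the run does not bear on such effects. Python 3.11.15 and pandas 2.3.3 were used for the tables. Of the 20804 identifiers 19694 matched the RefSeq gene table, whose GRCh38.p14 coordinates share the build. Sequences are from RefSeq and GENCODE 29. Alternatives were median-of-ratios scaling, another pseudocount, other filters, no trend, the replicate block, leaving out each library and, added after seeing the data, list counts without genes whose results were already known. The 10 genes and all lists were chosen with earlier results of these data known. Of other genes, up to 3 rises and 3 falls with the smallest p per list were eligible to be named, and neighbours within 1 Mb with a change of at least 1 in size. The nearest neighbours of ENG, markers, and genes given without passing were picked outside this rule.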

Additional observations from a re-analysis of the deposited data

How the results depend on the processing

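ENG stayed lower past the threshold under each alternative in which it was tested. A filter of a mean of at least 5 FPKM left it out, so that 0 of the 10 genes fell there. Its log2 fold change was -4.06 with a pseudocount of 0.1. TGFBR3 stayed past the threshold except without a filter on low values, where its log2 fold change was the same (1.02) but the adjusted p was 0.0509, so that 0 of the 10 rose, and TGFBR2 did not pass there either (0.0595). The number that rose was 1 after scaling, 1 without the mean-variance trend (TGFBR2 adjusted p 0.0554) and 1 with the replicate block, and 1 to 1 with a library left out, in each case without TGFBR2. BMPR2, which did not pass under any of them, ranged from -0.24 to 0.067 with a library left out and changed sign without the first WT library. Of the 108 other pathway genes tested 15 rose and 27 fell, against 16.2% and 10.8% of all tested genes. Without the filter 1 rose and 9 fell, and with a library left out 7 to 11 rose and 18 to 24 fell. Of the genes near ENG, 0 rose and 1 fell without the filter, where many more genes are tested, and with a library left out 0 to 2 rose and 5 to 10 fell. The log2 change of the ratio of TGFBR3 to ENG was 3.22 with a pseudocount of 1. That of TGFBR1 to TGFBR2 (0.13) ranged from -0.026 to 0.29 with a library left out. The labels share replicate numbers between the groups, which need not pair the libraries, and the deviations of same-numbered libraries correlated at -0.177 across genes. With the replicate block 1 of the 10 genes rose and 1 fell, and 13 and 26 other pathway genes. With the crossed replicate block, added after seeing the data, 4 rose and 1 fell, and 19 and 30. Depth is unknown, so the error of low values such as those of ENG in KO cannot be given.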
